A study of Mus musculus with 9 samples.

Results

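The cyclins, kinases and inhibitors that govern the G1 phase of the cell cycle were followed in SB28 glioma cells grown in mouse brain. The set comprised 10 of the 24421 rows of the deposited count table, found by symbol: the cyclins *Ccnd1*, *Ccnd2*, *Ccnd3* and *Ccne1*, the kinases *Cdk4* and *Cdk6*, the kinase inhibitors *Cdkn1b*, *Cdkn2b* and *Cdkn2c*, and *Rb1*. All 10 were found and all 10 passed the filter on low counts in each comparison. SB28 is a mouse glioma line that carries GFP and luciferase, and BAL101553 (lisavanbulin) is an oral prodrug of a compound that acts on microtubules and the spindle checkpoint. RNA was sequenced from 3 control libraries (vehicle, per the paper), 3 libraries from mice given BAL101553 by mouth, and 3 libraries labelled astrocytes, all from C57BL/6 mouse brain. Mouse age and the dose given to these mice are not given in the labels.

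The methods describe tumor cells sorted as CD45-CD11b-GFP+, whereas the labels of the control and BAL101553 libraries call the material whole tissue. The sequence data of the paper are placed by its authors under a different record from the one read here. Whether its sorting, vehicle and times of harvest hold for these libraries is therefore not known. In the paper, treated mice were killed later than controls so that tumors were of like volume. If these libraries were made in that way, treatment and time of growth cannot be told apart. The libraries labelled astrocytes also carry the treatment label BAL101553 and are not named in the text of the paper. More control and BAL101553 libraries were deposited than the ex vivo samples which the paper states, and nothing says that libraries of a group came from separate mice, so p-values measure the spread between these libraries, which may be technical. Library totals ran from 22919523 to 34013875 counts. Of the 7 astrocyte markers, *Gja1* made up nearly all of the summed level in the SB28 libraries (896 to 937 CPM, counts scaled to a common library size, in controls and 658 to 764 after BAL101553), while the libraries labelled astrocytes held 11900 to 14600. Those libraries also held 10300 to 12700 CPM of 6 oligodendrocyte markers and 380 to 844 CPM of 7 markers of microglia and macrophages. In the SB28 libraries the same lists stood at 15.3 to 20.6 CPM and 1.5 to 2.5 CPM. Of 4 endothelial markers, *Cdh5* made up nearly all of the summed level in SB28 cells, 735 to 859 CPM in controls and 515 to 643 CPM after BAL101553, against 143 to 166 CPM in the libraries labelled astrocytes, while *Cldn5* and *Pecam1* stood at 1.48 CPM or less in every SB28 library. The 4 neuronal markers summed to 44.7 to 57.2 CPM in controls, 24 to 47.3 CPM after BAL101553 and 29.6 to 37.3 CPM in the libraries labelled astrocytes. In the SB28 libraries nearly all of this was *Tubb3*, and *Rbfox3* had no count there. *Tubb3* held 22.4, 30.5 and 26.5 CPM in the libraries labelled astrocytes.

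In G1, D-type cyclins bind CDK4 or CDK6, and cyclin E binds CDK2. These kinases phosphorylate the retinoblastoma protein, which otherwise holds E2F transcription factors inactive, and released E2F switches on genes of DNA replication. Inhibitors of the INK4 family bind CDK4 and CDK6 themselves, and p27, of the CIP/KIP family, binds cyclin-CDK complexes. Activity of this pathway is set largely by protein levels and phosphorylation, which RNA counts do not measure.

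Sequences just upstream of the transcription start are shown for *Cdk4* and *Cdk6*, the alternative partners of the D cyclins, and for *Cdkn1b*. RefSeq (GRCm38.p6) gave an entry for 7 of the 10 genes, and none for *Ccnd1*, *Ccnd2* and *Rb1*. Each run holds the 250 bases before the RefSeq start, 5′ to 3′ on the strand of the gene, with matches to an E-box (CACGTG) or a GC box (GGGCGG, or CCGCCC on the other strand) in capitals. The windows lie at chr10:127063285-127063534 (plus strand, *Cdk4*), chr5:3343643-3343892 (plus strand, *Cdk6*) and chr6:134920151-134920400 (plus strand, *Cdkn1b*). In GENCODE, used for the gene positions below, *Cdk6* starts at 3341485, so its window lies inside that gene span and not before it.
Cdk4: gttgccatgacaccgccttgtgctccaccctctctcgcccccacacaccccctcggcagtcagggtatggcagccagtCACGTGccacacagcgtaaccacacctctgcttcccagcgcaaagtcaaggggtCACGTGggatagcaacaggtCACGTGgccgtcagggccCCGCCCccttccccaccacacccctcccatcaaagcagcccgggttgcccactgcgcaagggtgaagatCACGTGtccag
Cdk6: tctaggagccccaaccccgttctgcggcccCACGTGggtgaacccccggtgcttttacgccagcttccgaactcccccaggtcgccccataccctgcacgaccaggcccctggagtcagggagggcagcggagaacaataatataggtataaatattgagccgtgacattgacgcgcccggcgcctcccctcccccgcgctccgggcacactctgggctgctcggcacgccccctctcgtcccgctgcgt
Cdkn1b: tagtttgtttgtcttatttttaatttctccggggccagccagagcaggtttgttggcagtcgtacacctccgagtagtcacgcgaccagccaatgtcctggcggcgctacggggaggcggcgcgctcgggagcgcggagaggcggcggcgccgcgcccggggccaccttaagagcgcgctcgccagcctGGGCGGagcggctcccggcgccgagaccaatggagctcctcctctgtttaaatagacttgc
The *Cdk4* window held 4 E-boxes, starting 172, 118, 98 and 11 bases before the start, and 1 GC box. In *Cdk6* there was 1 E-box, 220 bases before the start, and no GC box, and in *Cdkn1b* 1 GC box, 61 bases before the start, and no E-box. Over all 32851 windows of this length, 6.02% held an E-box, 7 windows held 4 or more, and 32.7% held a GC box. The E-box was added to the search after the *Cdk4* sequence had been seen. None of the windows of the 7 genes held an E2F word (TTTGGCGC, TTTCGCGC, TTTCCCGC or TTTGCCGC, in 1.86% of all windows) or an AP-1 word (TGACTCA, in 4.46%), and a FOXO word (GTAAACA, in 3.17%) was found in 1, that of *Ccnd3*. Both strands were searched, and the words searched do not overlap in the windows shown. A match is a description of the letters and not of a bound site.

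Treatment was first compared with control. Within the SB28 libraries, *Ccnd1* was lower after BAL101553 (1.38-fold), and *Ccnd2* (1.52-fold), *Cdk6* (1.39-fold) and *Cdkn1b* (1.65-fold) were higher. These 4 of the 10 genes passed a threshold of 0.05 (quasi-likelihood test of edgeR, p adjusted by Benjamini-Hochberg across every gene tested). Of 12633 genes tested, 14.7% were called (8.64% higher and 6.09% lower), and 39.7% had groups that did not overlap (20.1% higher and 19.6% lower), as did 7 of the 10, 4 higher and 3 lower. The median log2 fold change was 0.12 over the 10 genes and 0.02 over all genes tested. The 10 genes were chosen with earlier results of these data known. Of all calls, 58.7% were higher after BAL101553, but 77.4% with total library sizes in place of TMM scaling and 45.1% once trends with GC content and length of the transcripts were removed. In such bulk libraries, fewer cells with a transcript and less of it per cell cannot be told apart. None of the 4 calls was kept when any 1 control library was left out. The summed astrocyte and endothelial markers given above, nearly all *Gja1* and *Cdh5*, were lower after BAL101553 without overlap. *Slc1a3*, another astrocyte marker, was higher without overlap, at 0.583 to 0.716 CPM in controls and 1.3 to 2.96 CPM after BAL101553. The astrocyte markers *Aqp4*, *Slc1a2*, *Gfap*, *Aldoc* and *Gjb6* overlapped between the groups. The oligodendrocyte markers *Mbp*, *Mag* and *Cldn11*, at 1.56 CPM or less in SB28 libraries, were lower without overlap. *Csf1r* of microglia and macrophages and the neuronal marker *Snap25*, at 0.671 CPM or less there, were higher without overlap. The part of these markers in the differences was not tested.

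**Figure D1:**
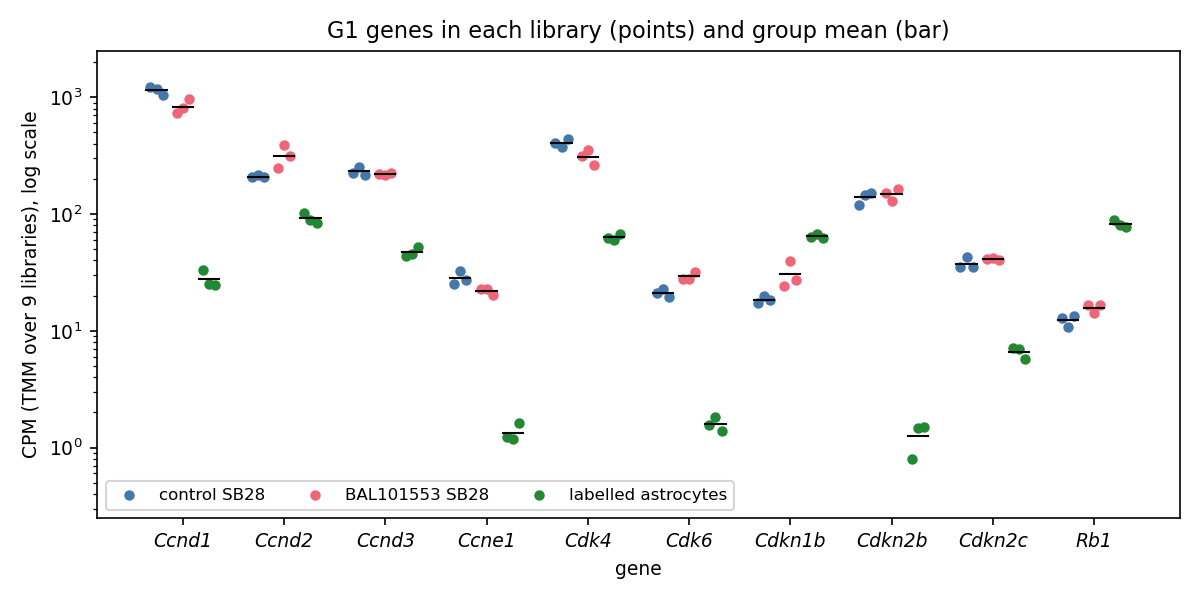
Level of each G1 gene in each of the 9 libraries, as CPM scaled by TMM over all 9 (log axis), with a bar at each group mean. *Ccnd1*, *Ccne1* and *Cdk4* lie lower, and *Ccnd2*, *Cdk6*, *Cdkn1b* and *Rb1* higher, in every BAL101553 library than in any control library, and in the libraries labelled astrocytes *Cdkn1b* and *Rb1* stand above and the other 8 genes below the SB28 libraries.

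Among the D cyclins, *Ccnd1* (cyclin D1, chr7:144929931-144939925, GRCm38) was the most abundant transcript of the set in SB28 cells. Its level was 1228, 1187 and 1053 CPM in control 1 to 3, and 728, 806 and 964 CPM in BAL101553 1 to 3. The highest treated library lay below the lowest control. The means were 1156 ± 91.6 and 833 ± 120 CPM (SD, n = 3 each), with a log2 fold change of -0.47 ± 0.13 (SE, edgeR adjusted p = 0.046). The call was kept without BAL101553 3 (edgeR adjusted p = 0.0469) and lost without each of the other libraries, with adjusted p from 0.075 (without BAL101553 2) to 0.127 (without control 1). It was also lost with total library sizes (adjusted p = 0.0919) and with upper-quartile scaling (0.0542).

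*Ccnd2* (cyclin D2, chr6:127125162-127152193) moved the other way. Controls held 206, 214 and 208 CPM, and BAL101553 1 to 3 held 248, 390 and 312 CPM. The controls lay close together, the treated libraries were spread, and BAL101553 2 stood highest. The rise of the mean from 209 ± 4.3 to 316 ± 71.1 CPM (SD, n = 3 each) gave a log2 fold change of 0.60 ± 0.16 (SE, edgeR adjusted p = 0.0412). The call was kept without BAL101553 1 (edgeR adjusted p = 0.0237), but not without BAL101553 2 (log2 fold change 0.42, adjusted p = 0.0523), BAL101553 3 (0.0925), control 1 (0.113), control 2 (0.0875) or control 3 (0.133), nor after removal of the length and GC trend (0.0777). A gene on the opposite strand, *9330179D12Rik*, overlaps *Ccnd2*, and the strand setting of the counting is not given in the sources used here.

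*Ccnd3* (cyclin D3, chr17:47505051-47599691) held 226, 254 and 215 CPM in controls and 219, 217 and 222 CPM after BAL101553. The treated values fell inside the range of the controls. Its log2 fold change was -0.07 ± 0.09 (SE, edgeR adjusted p = 0.598), and with total library sizes the sign turned (0.01). *Bysl*, on the opposite strand, overlaps it.

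D cyclins bind the same kinases, and their make-up was read within each library, as counts per kb of exon, which no scaling of libraries can alter. Cyclin D1 made up 84.5%, 83% and 82.7% of D cyclin reads per kb in control 1 to 3, and 75.1%, 72.2% and 77.8% in BAL101553 1 to 3. All treated libraries lay below all controls, with means of 83.4% ± 0.977 and 75% ± 2.82 (SD, n = 3 each), a difference of -8.42 percentage points (exact two-sided permutation test, p = 0.1, the smallest that 3 against 3 allows). The share of *Ccnd2* was 7.59% ± 0.543 in controls and 14.3% ± 2.75 after BAL101553, and that of *Ccnd3* was 8.99% ± 0.589 and 10.7% ± 1.29. *Ccnd1* thus remained the main D cyclin transcript in every SB28 library.

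**Figure D2:**
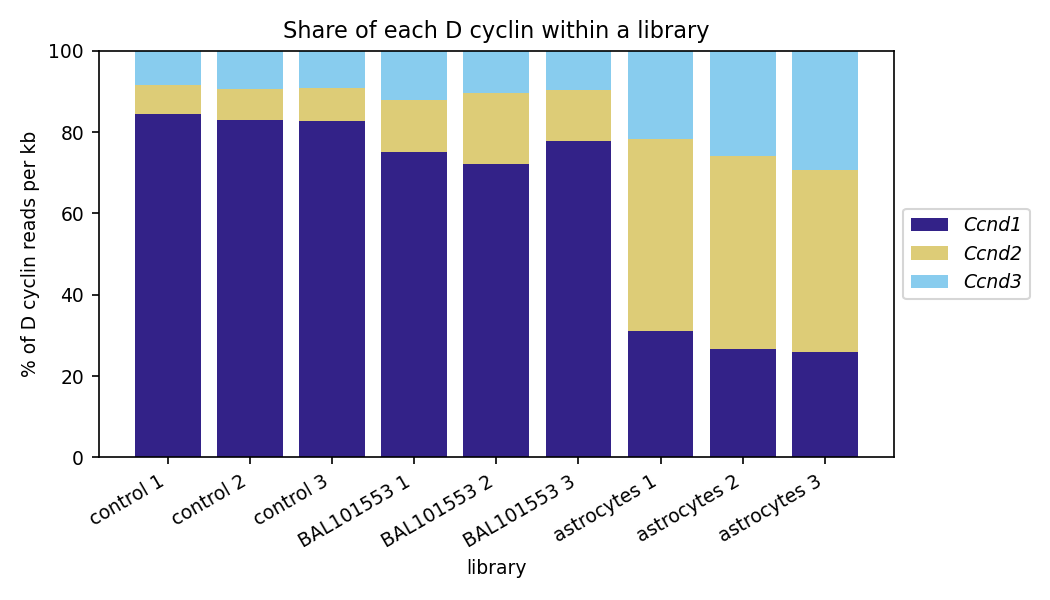
Share of *Ccnd1*, *Ccnd2* and *Ccnd3* in the D cyclin reads per kb of exon of each of the 9 libraries (stacked bars, percent of the library's D cyclin reads per kb). The *Ccnd1* share runs from 82.7% to 84.5% in controls, from 72.2% to 77.8% after BAL101553 and from 26% to 31% in the libraries labelled astrocytes, where the *Ccnd2* share is the largest with this exon length.

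Cyclin E1, encoded by *Ccne1* (chr7:38097984-38107534), is the partner of CDK2 late in G1. Levels were 25, 32.3 and 27.4 CPM in controls and 22.6, 22.6 and 20.3 CPM after BAL101553. The groups did not overlap, with the treated libraries lower, but the log2 fold change of -0.37 ± 0.13 did not pass the threshold (SE, edgeR adjusted p = 0.0889). It passed in none of the 26 alternatives (adjusted p from 0.0567 to 0.369).

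The kinases differed in direction. *Cdk4* (chr10:127063534-127067920) held 402, 377 and 440 CPM in controls, against 312, 351 and 265 CPM after BAL101553. Every treated library lay below every control, yet the log2 fold change of -0.39 ± 0.12 had an edgeR adjusted p of 0.0723. It passed the threshold without BAL101553 2 (log2 fold change -0.49, edgeR adjusted p = 0.0368), by DESeq2 (adjusted p = 0.0255), by edgeR's exact test (adjusted p = 0.0438) and with all 9 libraries in one model (adjusted p = 0.036). *Tspan31*, on the opposite strand, overlaps *Cdk4*.

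*Cdk6* (chr5:3341485-3531008) was the scarcest transcript of the set per kb in each group. Its level was 21.2, 22.8 and 19.6 CPM in controls and 27.9, 28 and 32.1 CPM after BAL101553. The treated libraries stood above the controls without overlap. Means were 21.2 ± 1.6 and 29.3 ± 2.42 CPM (SD, n = 3 each), with a log2 fold change of 0.47 ± 0.12 (SE, edgeR adjusted p = 0.035). The call was kept without BAL101553 2 (edgeR adjusted p = 0.0431), and lost without BAL101553 1 (0.0615), BAL101553 3 (0.0965), control 1 (0.0955), control 2 (0.057) or control 3 (0.134). Removal of the length and GC trend lowered the log2 fold change to 0.26 (adjusted p = 0.146), and *Cdk6* has the longest exon sequence of the set, at 14 kb.

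Per kb, *Cdk4* made up 98.8% ± 0.181 of the reads on both kinases in controls and 97.8% ± 0.482 after BAL101553 (SD, n = 3 each). The groups did not overlap, with a difference of -0.991 percentage points (exact two-sided permutation test, p = 0.1, the smallest possible). *Cdk6* therefore stayed a small part of the kinase RNA, from 1.02% to 1.39% in controls and from 1.82% to 2.74% after BAL101553.

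Of the inhibitors, only *Cdkn1b* was called in this comparison. *Cdkn1b* (p27, chr6:134920401-134925513) held 17.2, 19.9 and 18.2 CPM in controls and 24.3, 39.5 and 27.4 CPM after BAL101553. All treated libraries were higher, and BAL101553 2 was again the highest. The mean went from 18.5 ± 1.37 to 30.4 ± 8.02 CPM (SD, n = 3 each), and the log2 fold change of 0.72 ± 0.19 was the largest of the 10 in size (SE, edgeR adjusted p = 0.0419). The call was kept without BAL101553 1 (edgeR adjusted p = 0.0375) and without BAL101553 2 (log2 fold change 0.48, adjusted p = 0.0475), and lost without BAL101553 3 (0.0736), control 1 (0.12), control 2 (0.0769) or control 3 (0.134). Each of the 11 other tests, scalings, filters and models tried kept it.

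The INK4 genes did not pass the test. *Cdkn2b* (p15, chr4:89306299-89311039) held 120, 145 and 151 CPM in controls and 153, 128 and 163 CPM after BAL101553, with overlap and a log2 fold change of 0.10 ± 0.12 (SE, edgeR adjusted p = 0.608). For *Cdkn2c* (p18, chr4:109660876-109667189) the values were 35.2, 42.8 and 34.9 CPM, and 41.1, 42.3 and 40.4 CPM. These overlapped too, with a log2 fold change of 0.14 ± 0.11 (SE, edgeR adjusted p = 0.404).

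*Rb1*, which encodes the retinoblastoma protein (chr14:73183673-73325822), was low in SB28 cells, at 12.8, 10.8 and 13.5 CPM in controls and 16.7, 14.1 and 16.6 CPM after BAL101553. The treated libraries were higher without overlap, although the lowest of them lay just above the highest control. The log2 fold change of 0.36 ± 0.14 did not pass the threshold (SE, edgeR adjusted p = 0.121), nor did it in any alternative in which a control or BAL101553 library was left out singly (adjusted p from 0.0965 to 0.284). *Lpar6* and *Rcbtb2*, on the opposite strand, overlap *Rb1*.

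**Figure D3:**
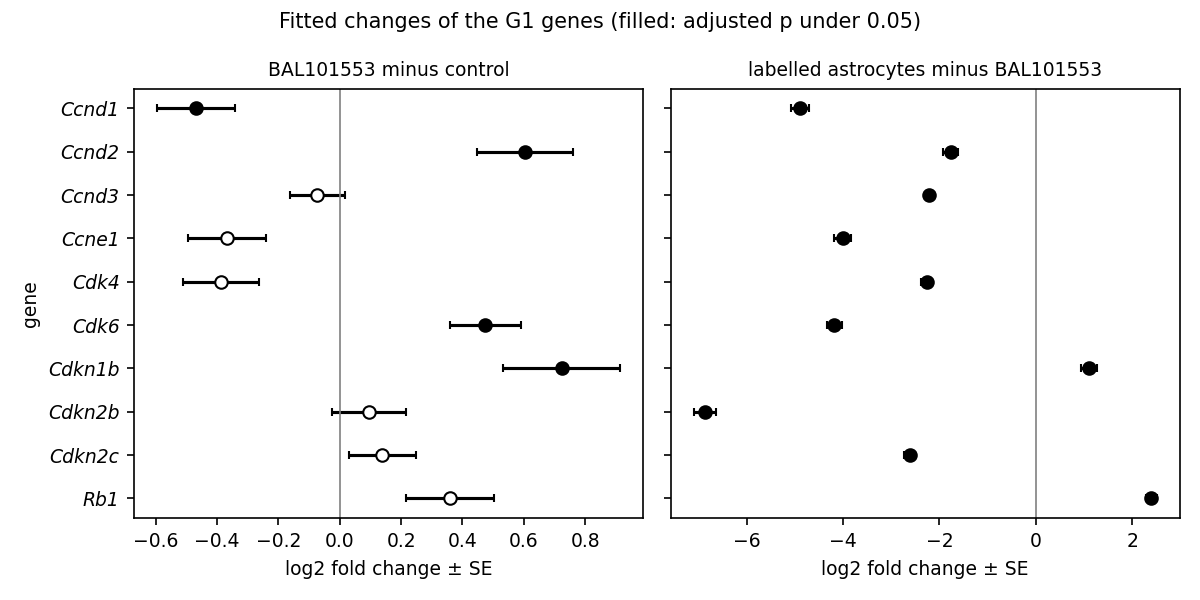
Log2 fold change of each G1 gene with an SE derived from the F statistic of edgeR's quasi-likelihood test. Shown are BAL101553 minus control (left) and the libraries labelled astrocytes minus BAL101553 (right), with filled points where the adjusted p was under 0.05. On the left 4 of 10 points are filled and none exceeds 0.72 in size, and on the right all 10 are filled and span -6.87 to 2.40.

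**Figure D4:**
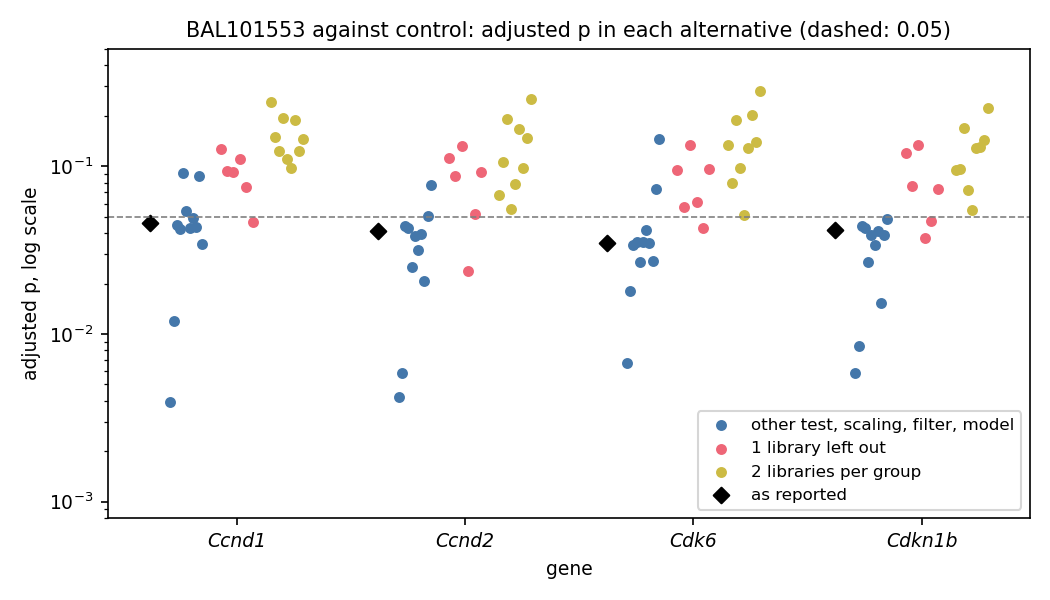
Adjusted p (log axis) of the 4 called genes as reported (diamond), under 11 other tests, scalings, filters and models, with 1 library left out, and with 2 libraries per group, with a dashed line at 0.05. With 2 libraries per group no point of these 4 genes lies under the line, and with 1 left out 1 or 2 of 6 points do.

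Further genes of the G1 and Rb pathway were read from a list of 25, of which 2 were called and 8 had groups that did not overlap, against 14.7% and 39.7% of all genes tested. This list and that of E2F targets below were chosen with earlier results of these data known. *E2f2*, an activating E2F factor, rose from 2.47, 3.37 and 2.69 CPM in controls to 6.53, 3.98 and 7.25 CPM after BAL101553, a log2 fold change of 1.06 ± 0.27 (SE, edgeR adjusted p = 0.039). *Cdc25a*, the phosphatase that activates CDK2, fell from 46.9, 54.9 and 53.1 CPM to 40.6, 40.6 and 35.7 CPM, a log2 fold change of -0.40 ± 0.10 (edgeR adjusted p = 0.0412). In both the groups did not overlap, and both calls were kept without BAL101553 2 (edgeR adjusted p = 0.0185 and 0.0479) and lost without each of the other libraries (up to 0.134 and 0.136). With total library sizes *Cdc25a* was lost as well (log2 fold change -0.32, edgeR adjusted p = 0.0739). The median log2 fold change of the list was 0.04, with 14 genes above 0 and 11 below.

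Of 18 genes listed as targets of E2F, 1 was called, against 14.7% of all genes tested. *Gins2*, a part of the replicative helicase, held 23, 26.2 and 23.1 CPM in controls and 17.7, 16.9 and 18 CPM after BAL101553, without overlap. Its log2 fold change was -0.45 ± 0.11 (SE, edgeR adjusted p = 0.0356), and the call was lost without any 1 library (adjusted p from 0.0604 to 0.0999) and with total library sizes (-0.36, adjusted p = 0.0769). Of the 18 genes 14 lay below 0 and 4 above, with a median log2 fold change of -0.11, and 7 had groups that did not overlap, against 39.7% of all genes tested. Over all 12633 genes 6128 lay below 0. *Mki67*, named after its values were seen and used widely to mark dividing cells, was on the other side, at 126, 113 and 129 CPM in controls and 131, 217 and 174 CPM after BAL101553 (log2 fold change 0.51 ± 0.17, edgeR adjusted p = 0.0813). With total library sizes *Mki67*, higher after BAL101553, became the only target called (log2 fold change 0.60, edgeR adjusted p = 0.049). It was also called higher by DESeq2 (adjusted p = 0.0335) and by edgeR's exact test (adjusted p = 0.0376). So it was with all 9 libraries in one model (edgeR adjusted p = 0.0498) and without BAL101553 1 (edgeR adjusted p = 0.0306).

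**Figure D5:**
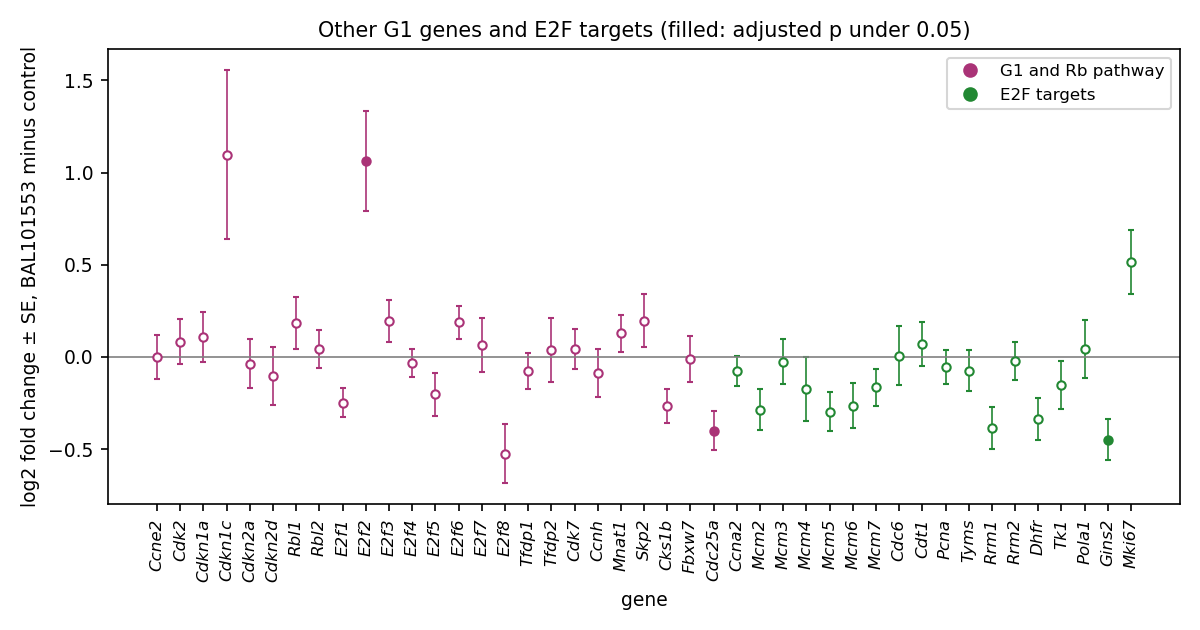
Log2 fold change with its SE (BAL101553 minus control, edgeR) for 25 further genes of the G1 and Rb pathway and 18 E2F targets, with filled points where the adjusted p was under 0.05. *E2f2*, *Cdc25a* and *Gins2* are filled, and 14 of the 18 E2F targets lie below 0.

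Levels were also ordered within each group, as CPM per kb of exon. In controls the order was *Ccnd1* (245), *Cdk4* (125), *Cdkn2b* (99.9), *Ccnd3* (26.4), *Ccnd2* (22.2), *Cdkn2c* (14), *Ccne1* (10.6), *Cdkn1b* (4.06), *Rb1* (2.06) and *Cdk6* (1.51), and no neighbors overlapped over libraries. After BAL101553, *Ccnd1* was again first at 177 CPM per kb. *Cdkn2b* (106) and *Cdk4* (95.2) overlapped there, as did *Ccne1* (8.19) and *Cdkn1b* (6.67). *Ccnd2* (33.6) stood above *Ccnd3* (25), the reverse of the controls, but with the length of the longest transcript in place of the exon length *Ccnd3* (56.9) stood above *Ccnd2* (50).

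The libraries labelled astrocytes were next compared with the BAL101553 libraries, which carry the same treatment label. All 10 genes were called, 8 lower and 2 higher, whereas 85.1% of 15314 genes tested were called in this comparison (38.9% lower and 46.3% higher), and 87.8% had groups that did not overlap (40.2% lower and 47.6% higher), as did all 10. The share called therefore says little about these genes, and the sizes are given. The median log2 fold change was -2.44 over the 10 genes and 0.18 over all genes tested, which other scalings moved to as much as 0.39. No gene of the set changed direction or lost its call in any of 16 alternatives. Markers of oligodendrocytes and of microglia and macrophages differed between these groups as given above, and their part in the differences was not tested.

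*Cdkn2b* showed the largest difference of the set. It held 0.802, 1.48 and 1.51 CPM (26 to 43 counts) in the libraries labelled astrocytes, against 128 to 163 CPM after BAL101553. Both groups were far apart, with a log2 fold change of -6.87 ± 0.23 (117-fold lower, edgeR adjusted p = 7.19e-08). *Ccnd1* stood at 33.4, 25.2 and 24.7 CPM, 29.7-fold lower (log2 fold change -4.89 ± 0.18, edgeR adjusted p = 1.25e-07). *Cdk6* and *Ccne1* were near 1 to 2 CPM in every such library and were 18.1-fold and 16.1-fold lower (edgeR adjusted p = 1.49e-07 and 2.57e-07).

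A smaller difference was seen for the other lower genes. *Cdkn2c* was 6.15-fold lower, at 7.15, 6.97 and 5.78 CPM. *Cdk4*, at 62.8, 60.3 and 67.9 CPM, was 4.8-fold lower, and *Ccnd3*, at 43.5, 45.3 and 52.1 CPM, 4.63-fold lower. *Ccnd2* differed least among the 8, at 102, 89.2 and 84.5 CPM (log2 fold change -1.77 ± 0.16, 3.41-fold lower, edgeR adjusted p = 1.71e-05).

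Higher in the libraries labelled astrocytes were *Rb1* and *Cdkn1b*, both brakes on entry into S phase. The other brakes of the set, *Cdkn2b* and *Cdkn2c*, were lower, as given above. *Rb1* stood at 89.3, 80.2 and 78.1 CPM, 5.27-fold higher than after BAL101553 (log2 fold change 2.40 ± 0.11, edgeR adjusted p = 3.27e-07). *Cdkn1b* held 64.2, 67.1 and 62.3 CPM, 2.15-fold higher (log2 fold change 1.11 ± 0.17, edgeR adjusted p = 0.000318). Neither gene overlapped between the groups, and the spread of *Cdkn1b* was smaller in the libraries labelled astrocytes (SD 2.39 CPM) than after BAL101553 (SD 8.02 CPM, n = 3 each).

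The make-up of the D cyclins differed as well. Cyclin D1 made up 31%, 26.7% and 26% of D cyclin reads per kb in the libraries labelled astrocytes, a difference of -47.1 percentage points from BAL101553 (exact two-sided permutation test, p = 0.1, the smallest possible). *Ccnd2* had the largest share there, 46.4% ± 1.6, and *Ccnd3* had 25.7% ± 3.88 (SD, n = 3). With the length of the longest transcript the *Ccnd2* shares were 44.3%, 43.3% and 39.9% and those of *Ccnd3* 31.1%, 36.1% and 40.4%, so that *Ccnd3* had the largest share in astrocytes 3. *Cdk4* made up 99.4% ± 0.112 of the *Cdk4* and *Cdk6* reads per kb, 1.61 percentage points more than after BAL101553 (exact permutation test, p = 0.1). By level per kb, *Cdk4* was first (19.6), followed by *Cdkn1b* (14.2) and *Rb1* (13.7), which overlapped over libraries, then *Ccnd2* (9.75), *Ccnd1* (5.89) and *Ccnd3* (5.35), of which the latter pair overlapped. With the length of the longest transcript the order after *Cdk4* was *Rb1* (17.7), *Ccnd2* (14.5), *Cdkn1b* (14.2), *Ccnd3* (12.2) and *Ccnd1* (7.42).

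Against 85.1% of all genes tested (38.9% lower and 46.3% higher), 23 of the 25 further pathway genes were called in this comparison. Of these, 21 were lower and 2 higher, and the median log2 fold change of the list was -1.89. The rises were those of *Rbl2*, a relative of *Rb1* (29.1 CPM after BAL101553 and 92.6 CPM in the libraries labelled astrocytes, log2 fold change 1.69 ± 0.08, edgeR adjusted p = 5.32e-07), and *Tfdp2*, a partner of E2F factors (24.1 and 47.9 CPM, log2 fold change 1.01 ± 0.12, adjusted p = 8.55e-05). The largest falls were in *Cdkn2a*, the neighbor of *Cdkn2b* (388 CPM and 0.672 CPM), *Cks1b*, a subunit bound to CDKs (108 and 1.86 CPM), and *E2f8*, a repressing E2F (72.8 and 1.55 CPM). All 18 E2F targets were called lower, against 38.9% of all genes tested, with a median log2 fold change of -3.46. *Tk1*, *Cdt1* and *Ccna2* differed most, with log2 fold changes of -5.06 ± 0.24, -4.88 ± 0.13 and -4.46 ± 0.10.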

How the data were processed

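The paper describes stranded libraries from RNA of sorted cells, whereas the labels of the control and BAL101553 libraries call the material whole tissue. Reads were mapped with TopHat to mm10 and counted. The submitters' processing notes name HTSeq 0.6.1, and the paper also names featureCounts. The deposited values are raw read counts for each gene in 9 libraries, which were grouped by their labels. Total counts were 24540452 to 28761388 in controls, 26667789 to 34013875 after BAL101553 and 22919523 to 29230743 in the libraries labelled astrocytes, so that counting error was small beside the spread between libraries except for genes with few counts. Of 24421 rows, 27 had names turned into dates. These rows, at most 0.44% of any library's counts, were kept.

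Tests were run in edgeR 4.0.16 under R 4.3.3 (filterByExpr, TMM, two-sided quasi-likelihood test, p adjusted by Benjamini-Hochberg across every gene tested, threshold 0.05), with only the groups compared in each fit. CPM were scaled by TMM over all 9 libraries. For positions and lengths, 23350 rows were matched by symbol to GENCODE vM21 (GRCm38). Shares of cyclins and kinases used counts per kb of exon and an exact permutation test. Genes named were the 10 members, in each comparison up to 3 largest rises and falls of each list past the threshold without overlap of groups, and the 3 genes most like the member with the lowest p. The members and lists were chosen with earlier results of these data known. Alternatives were DESeq2 1.42.0, limma-trend (limma 3.58.1), edgeR's exact test, other scalings and filters, all 9 libraries in one model, a replicate block, removal of a length and GC trend, 1 library left out, and 2 libraries per group. Scripts were tested on simulated data.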

Additional observations from a re-analysis of the deposited data

How the results depend on the processing

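In BAL101553 against control, 4 G1 genes were called, and between 0 and 3 when 1 library was left out: 0 without control 1, 2 or 3, 2 without BAL101553 1, 3 without BAL101553 2 and 1 without BAL101553 3. With 2 libraries per group, between 0 and 1 were called. In the pathway list the count of 2 became 0 to 3 with 1 library left out and 0 to 1 with 2 per group, and in the E2F target list the count of 1 became 0 to 1 in both. The count of pathway genes was 5 by DESeq2 and 1 with total library sizes. The count of E2F targets was 4 by DESeq2, 3 by edgeR's exact test, 4 with all 9 libraries in one model and 4 after removal of the length and GC trend, which left 2 G1 genes called. By DESeq2, by the exact test and with all 9 libraries, *Mki67* was the 1 target called higher, and the others were lower. Over all genes, 1860 were called, against 2832 by DESeq2, 3022 with all 9 libraries, and between 193 (without control 3) and 1712 (without BAL101553 2) with 1 library left out, so the data limit how firmly a call in this comparison can be held. The direction turned for *Ccnd3* with total library sizes (log2 fold change 0.012) and for *Cdkn2b*, which was not called, without control 1 and BAL101553 1 (-0.02) or control 1 and BAL101553 3 (-0.063); its values with 2 libraries per group ran from -0.063 to 0.246.

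The labels number the libraries alike in each group, but same-numbered libraries of the control and BAL101553 groups deviated together only weakly (r = 0.144, 0.00887 and 0.144 for numbers 1 to 3), and those of the BAL101553 and astrocyte-labelled groups less (r = 9.18e-05, 0.0581 and 0.0343), so the numbers were not taken as pairs. With the replicate number as a block, 1 G1 gene (*Cdkn1b*), 0 pathway genes and 0 E2F targets were called after BAL101553, and *Ccnd1* (adjusted p = 0.0871), *Ccnd2* (0.0507) and *Cdk6* (0.0729) were lost.

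Without correction for length, the *Ccnd1* share differed by -11.6 percentage points between BAL101553 and control and by -44.2 between the libraries labelled astrocytes and BAL101553, and the *Cdk4* share by -3.81 and 6.34. With 1 library left out these differences ran from -9.81 to -7.00, from -48.6 to -45.7, from -1.18 to -0.721 and from 1.34 to 1.80 points. For the libraries labelled astrocytes, 10 G1 genes and 18 E2F targets were called in all 16 alternatives, and 21 to 23 pathway genes with 1 library left out. Of all genes tested, 73.9% to 85.8% were called in these alternatives.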

Other observations

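*Cdk6* had the lowest p of the 10 genes in BAL101553 against control. Over the 6 SB28 libraries, the genes whose centred log2 CPM lay closest to it among 12632 were *Prdm10*, *Hivep1* and *Mdc1*, with root mean square differences of 0.0373, 0.0398 and 0.0446 against a median of 0.339 over all genes. *Mdc1*, a mediator of the DNA damage checkpoint, held 56.4, 67.0 and 55.1 CPM in controls and 80.2, 79.7 and 91.2 CPM after BAL101553. *Hivep1*, a zinc finger transcription factor, held 48.9, 54.9 and 46.3 CPM, and 62.6, 62.3 and 73.6 CPM. Within the set, *Rb1* (0.183) and *Cdkn2c* (0.191) lay closest to *Cdk6*, and *Cdk4* (0.487) farthest. These distances are descriptions with no test.

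Chosen after its values were seen, *Cdkn1c* (p57, of the same family as p27) held 41.3 CPM in BAL101553 2, against 12.4 and 13.3 CPM in the other BAL101553 libraries and 8.12 to 12.0 CPM in controls. The same library was the highest of the 6 SB28 libraries for *Ccnd2*, *Cdkn1b* and *Mki67*, and the lowest for *E2f8* (53.5 CPM, against 80.8 and 84.1 CPM in the other BAL101553 libraries). It also differed broadly from its group. Over all genes but those with few counts, chi-square per degree of freedom was 58.7 against BAL101553 1 and 64.9 against BAL101553 3. Between BAL101553 1 and 3 it was 33.5. In the libraries labelled astrocytes, *Cdkn2a* held 0.216, 0.138 and 1.66 CPM.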
